A study of Mus musculus with 12 samples.

Results

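The data address where the loss of Rev1 and the K164R change in Pcna do not add up in mouse fetal blood progenitors. All 12 plates of the series belong to this comparison, and each plate was 1 replicate. The 4 groups were the double mutant, homozygous for Pcna K164R and lacking Rev1 (4 plates), the Rev1 knockout with unchanged Pcna (3 plates), homozygous Pcna K164R with Rev1 present (2 plates), and wild type (WT, 3 plates). All plates shared the C57BL/6J background and held LSK cells (no lineage markers, Sca-1 and Kit on the surface), which include haematopoietic stem cells and multipotent progenitors, sorted from the fetal liver at day 18.5. The labels do not say whether plates of a genotype came from separate fetuses, so p-values measure only how plates differ, and part of that may be technical. Single cells were sorted into wells, and SORT-seq marked mRNAs at the 3' end with a well barcode and a random molecular barcode (unique molecular identifier, UMI).

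Rev1 is a translesion DNA polymerase that inserts bases opposite damaged template and also serves as a docking platform for other translesion polymerases. Pcna is the ring-shaped clamp that holds polymerases on DNA, and the lysine lost in K164R is where ubiquitin is attached when a fork meets damage, which recruits translesion polymerases and opens template switching. Both changes therefore act on DNA damage tolerance, and the comparison asks whether their effects on transcript levels are independent. For each gene the interaction was (double mutant minus Rev1 knockout) minus (Pcna K164R minus WT) on the log2 scale. It is 0 where the double mutant differs from WT by the sum of the differences of the single mutants from WT, called the additive expectation here. A positive value places the double mutant above that sum and a negative value below it.

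Of 4608 wells, 3088 held at least 1000 UMIs outside the spike-in RNAs and were summed per plate. Depth per plate ran from 212938 to 11617420 UMIs. Sums cannot tell fewer cells of a type from less RNA per cell. Double mutant replicate 3 had the fewest UMIs: 1 UMI there equals 8.68 CPM (counts scaled to a common library total, here TMM-normalised), against 0.0886 to 0.406 CPM elsewhere, and a value of 0 in that plate allows up to 26.0 CPM (3 counts, counting error only). The plates were sorted in 3 sessions, and no session held all 4 genotypes. Session 1 held double mutant replicates 1 and 2, both Pcna K164R plates and WT replicate 1. Session 2 held double mutant replicate 3 and Rev1 knockout replicate 1, and session 3 held the other 5 plates. Transcripts of the sorting markers were present. Kit had 65.7 to 562 CPM before TMM scaling, and Ly6a, which encodes Sca-1, 0 to 108 with 1 plate at 0. Cd34, which is not part of the LSK definition, had 65.7 to 456. Of the T and innate lymphoid markers, Cd3e was at 0 in 10 plates, while Cd3d (0.603 to 113 CPM) and Nkg7 (9.23 to 113 CPM) were found in all 12. Wells with an Xist UMI made up 56.3%, 36.9%, 6.10% and 3.74% of the double mutant plates, 85.2% to 92.7% of the Rev1 knockout plates, 0.565% and 86.1% of the Pcna K164R plates and 0.525% to 2.92% of the WT plates, so the sex of the cells differed between genotypes, and X and Y genes were left out. The part of sex in the results was not tested over plates, but the medians of the main lists are also given from wells with a Y-linked UMI and no Xist UMI, where the median of all genes shifted by 0.14. Such wells numbered 13, 20 and 30 in the Rev1 knockout plates and 33 in Pcna K164R replicate 2, so these medians rest on few cells there.

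The transcripts of both mutated genes were examined first. Rev1 itself had 1.33, 2.50, 8.68 and 13.4 CPM in double mutant replicates 1 to 4, 5.62, 1.26 and 3.70 in Rev1 knockout, 10.5 and 7.51 in Pcna K164R, and 10.5, 18.4 and 11.98 in WT. The plate labelled double mutant replicate 4 thus lay in the WT range, which goes against its label, although 3' tags outside the deleted stretch would check nothing and the labels do not give that stretch. The 8.68 CPM of replicate 3 was a single UMI. In all lists of 4 double mutant values, replicate 4 is the last and is the plate labelled so, and values that move most without it are given beside the result. Without it the interaction of Rev1 was 0.42, against 1.16 ± 0.82 with it. Pcna had 1043, 905, 347 and 962 CPM in double mutant plates, 798, 482 and 575 in Rev1 knockout, 764 and 837 in Pcna K164R and 658, 716 and 430 in WT, with an interaction of -0.01 ± 0.51 (SE).

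No gene passed the threshold for an interaction. In edgeR's quasi-likelihood test, 0 of 11799 genes outside X and Y (0%) had a Benjamini-Hochberg adjusted p under 0.05. At an unadjusted p under 0.05 there were 617 genes (5.23%), of which 238 were positive (2.02%) and 379 negative (3.21%). DESeq2 called 29 genes, limma-voom 2, and edgeR without a filter on low counts 230. The median standard error of an interaction was 0.43 and the median size of an interaction 0.31, so most interactions were smaller than their error. The genes and lists below are therefore values and not calls, named by smallest p.

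Among the 238 positive genes, the additive expectation lay on the other side of WT from the double mutant for 144, and on the same side but short of it for 36. For the other 58 both lay below WT, with the double mutant nearer to it. Among the 379 negative genes these counts were 253, 91 and, with both above WT, 35. These counts are a description, since expectation and interaction share plates.

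**Figure D1:**
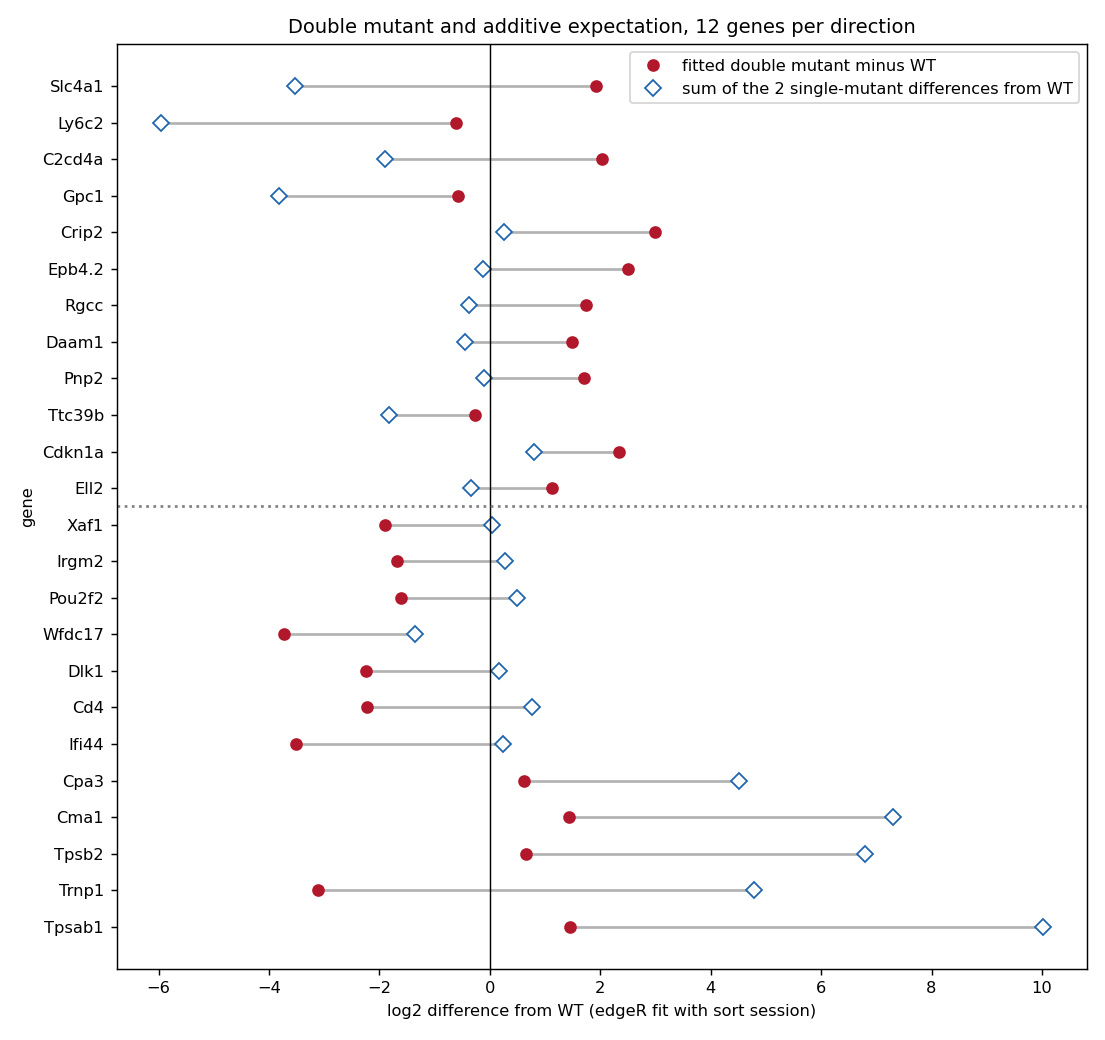
The 12 positive genes (above the dotted line) and 12 negative genes (below it) with the smallest p. The x axis is the log2 difference from WT: filled circles are the fitted double mutant, open diamonds the sum of both single-mutant differences. The grey bar between them is the interaction, from 5.45 for Slc4a1 to -8.58 for Tpsab1, and for the mast cell genes Cpa3, Cma1, Tpsb2 and Tpsab1 the diamonds lie far right of double mutants near WT.

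Interferon-stimulated genes were the list with the most negative members at an unadjusted p under 0.05. These genes are switched on by interferon through transcription factors that bind a promoter element with 2 GAAA cores, and they encode antiviral enzymes and GTPases. Of 53 members, all of them tested, 35 had a negative interaction at an unadjusted p under 0.05 and 0 a positive one, against 3.21% and 2.02% of all genes. Their median interaction was -1.32, beside -0.01 for all genes, and 2 of 53 were above 0, against 48.6% of all genes. By the median member, the double mutant differed from WT by -1.30, where the sum of the single mutants predicted -0.08, made of 0.53 for Rev1 knockout and -0.57 for Pcna K164R. In CPM before TMM scaling, the list's summed level was 895 to 1742 in double mutant plates and 3465 to 4460 in Rev1 knockout. It was 2066 to 2225 in Pcna K164R and 2470 to 3269 in WT. On this scale the double mutant overlapped with no other genotype. Its highest plate was replicate 3, whose TMM factor of 0.549 would raise it above the WT plates. The other double mutant plates had 895 to 1678 CPM. In Rev1 knockout plates the sum lay above every WT plate, and in Pcna K164R plates below.

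To show the element in members of the list, the stretch around the motif GAAANNGAAA (both strands, in capitals, with TTTC for GAAA where it lies on the other strand) is given for 5 members of small p whose promoter holds it before the gene start. The choice left out the promoters of a chromosome, so these members need not be the 5 of smallest p. They were chosen after their values were seen. Sequences are 60 bases in the direction of the gene, from RefSeq promoters on GRCm38.p6: Irgm2 at chr11:58214888-58214947 (+ strand), Ifit3 at chr19:34583382-34583441 (+), Ifit1 at chr19:34640779-34640838 (+), Rsad2 at chr12:26456538-26456597 (- strand) and Trim30a at chr7:104465195-104465254 (-).
Irgm2: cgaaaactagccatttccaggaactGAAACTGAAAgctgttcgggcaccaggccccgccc
Ifit3: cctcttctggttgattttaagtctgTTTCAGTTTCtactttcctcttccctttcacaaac
Ifit1: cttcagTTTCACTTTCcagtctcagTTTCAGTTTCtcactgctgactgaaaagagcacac
Rsad2: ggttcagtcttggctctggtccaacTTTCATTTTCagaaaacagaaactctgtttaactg
Trim30a: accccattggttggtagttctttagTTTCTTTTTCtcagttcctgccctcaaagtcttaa
Of the 53 members, 39 had a promoter in the table, which covers 250 bases before to 50 after the start, and 21 of them (53.8%) held the motif, against 3.99% of all 27025 genes with a promoter. A match is a run of letters and shows no binding. The interactions of these 5 genes were -1.96 ± 0.35 for Irgm2, -3.78 ± 0.78 for Ifit3, -2.23 ± 0.56 for Ifit1, -2.35 ± 0.66 for Rsad2 and -1.28 ± 0.36 for Trim30a.

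Ifi44, an interferon-induced gene of chromosome 3 (151730922 to 151749910, GRCm38.p6), had the smallest p of all genes. It had 2.92, 2.29, 0 and 1.22 CPM in double mutant plates, 37.2, 66.5 and 63.9 in Rev1 knockout, 10.7 and 21.9 in Pcna K164R, and 21.3, 41.2 and 33.8 in WT. The double mutant plates other than replicate 3 were below every plate of the other genotypes. The 0 of replicate 3 allows up to 26.0 CPM, above both Pcna K164R plates and WT replicate 1, so that plate cannot be placed below them. The additive expectation was 0.24 and the fitted difference from WT -3.51, an interaction of -3.75 ± 0.50 with an adjusted p of 0.0911 in edgeR's test. Under 9 of 34 alternatives it passed the threshold, DESeq2 and limma-voom among them. These include the fits without either or both plates of session 2, which are nearly the same fit. A plate alone in its session does not bear on the interaction. Xaf1, which antagonises the apoptosis inhibitor XIAP, had 10.5, 9.78, 17.4 and 6.08 CPM in double mutant plates, 44.2, 50.7 and 63.7 in Rev1 knockout, 18.0 and 24.6 in Pcna K164R, and 32.5, 34.4 and 32.7 in WT. Its interaction was -1.94 ± 0.36. No double mutant plate reached another genotype, but the 17.4 CPM of replicate 3 rests on few UMIs and is close to 18.0 in Pcna K164R. Irgm2, a GTPase of cell-autonomous immunity, had 7.62, 5.41, 8.68 and 6.89 CPM in double mutant plates, 27.3 to 33.0 in Rev1 knockout, 19.1 and 22.3 in Pcna K164R, and 18.7 to 30.3 in WT. For this gene both single mutants were close to WT (0.24 and 0.03) and the double mutant stood alone, at -1.68 from WT.

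The median of interferon-stimulated genes kept its sign under all 34 alternatives, with medians from -2.14 to -0.90. Using only differences within a session, its median was -1.16 from 8 plates (double mutant 1 and 2 against both Pcna K164R plates, and Rev1 knockout 2 and 3 against WT 2 and 3) and -2.14 from 6 plates (the plate labelled double mutant 4 against Rev1 knockout 2 and 3, and both Pcna K164R plates against WT 1). From Y-positive, Xist-negative wells, which were few in Rev1 knockout plates, it was -1.48. Without the plate labelled double mutant 4 it was -1.12.

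Genes of antigen presentation and lymphoid priming had medians below additivity. Of 20 tested MHC class I and II genes, 5 were negative and 0 positive at an unadjusted p under 0.05, with a median of -0.50. H2-D1, a class I heavy chain with close paralogs whose counts may be split, had an interaction of -1.004 ± 0.34, and Psmb8, a subunit of the immunoproteasome that the interferon list also holds, -1.31 ± 0.45. Psmb8 had 252, 174, 43.4 and 83.9 CPM in double mutant plates, 268 to 302 in Rev1 knockout, 174 and 236 in Pcna K164R and 157 to 168 in WT, so all plates of both single mutants were above WT and the double mutant plates lay on both sides of it. Without WT replicate 1 the interaction of Psmb8 was -0.82. Of 19 lymphoid progenitor markers, 7 were negative and 0 positive, 18 were below 0 and the median was -0.80. The double mutant's median difference from WT was -0.98 for this list, with an additive expectation of 0.00.

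Flt3, the receptor tyrosine kinase of early lymphoid-primed progenitors, had 78.6, 52.0, 26.0 and 42.2 CPM in double mutant plates, 187 to 202 in Rev1 knockout, 143 and 192 in Pcna K164R, and 209 to 259 in WT. Satb1, a chromatin organiser of lymphoid lineages, had 63.6, 46.0, 43.4 and 16.6 CPM in double mutant plates, 164.4 to 208 in Rev1 knockout, 110 and 158 in Pcna K164R and 153 to 174 in WT. Cd27, a receptor of the TNF receptor family on multipotent progenitors, had 93.6, 83.3, 26.0 and 44.2 CPM in double mutant plates, 138 to 158 in Rev1 knockout, 122 and 132 in Pcna K164R and 100 to 111 in WT. In all 3 genes the double mutant plates were the 4 lowest of the 12. Their interactions were -1.36 ± 0.37 for Flt3, -1.85 ± 0.47 for Satb1 and -1.38 ± 0.33 for Cd27. Cd4, a T cell coreceptor also transcribed in early progenitors, had 2.21, 2.29, 8.68 and 2.03 CPM in double mutant plates, 12.8, 28.0 and 18.3 in Rev1 knockout, 9.43 and 10.4 in Pcna K164R, and 10.3, 10.9 and 14.2 in WT. Its interaction was -2.99 ± 0.49. Pou2f2, which encodes the octamer factor Oct-2 of B cells, had an interaction of -2.09 ± 0.36, with 9.33 to 26.7 CPM in double mutant plates, 54.4 to 82.8 in Rev1 knockout, 34.3 and 51.9 in Pcna K164R and 26.9 to 66.8 in WT. The lymphoid progenitor markers had medians of -0.61 in Y-positive wells, with 2 of 18 negative (253 over all genes), -0.68 without the plate labelled double mutant 4 and -1.39 without double mutant replicate 1. The median of the MHC class I and II genes was -0.25 in Y-positive wells and -0.37 without the plate labelled double mutant 4, and 0 members were negative at an unadjusted p under 0.05 without WT replicate 1 or when flow cell replaced sort session as the batch term.

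Imprinted growth genes went both ways, with 3 positive and 4 negative of 19. Dlk1, the paternally expressed Notch-family protein of fetal tissue (chromosome 12, 109452485 to 109463336), had 17.5, 17.7, 0 and 9.73 CPM in double mutant plates, 116, 66.9 and 65.4 in Rev1 knockout, 49.3 and 74.7 in Pcna K164R, and 73.6, 55.3 and 42.8 in WT. The double mutant lay below all other plates, while the other 3 genotypes overlapped. The expectation was 0.17 and the interaction -2.41 ± 0.37 (adjusted p = 0.154, edgeR), past the threshold under 8 of 34 alternatives. These again include the nearly identical fits without plates of session 2. Igf2, a fetal growth factor, had 0 to 2.03 CPM in double mutant plates, 6.73 to 36.5 in Rev1 knockout, 16.6 and 28.1 in Pcna K164R and 14.1 to 25.0 in WT, with an interaction of -2.89 ± 0.57. Grb10, an adaptor that restrains insulin-type signalling, stood on the other side at 1.18 ± 0.36, with 104 to 226 CPM in double mutant plates, 65.0 to 97.1 in Rev1 knockout, 112 and 116 in Pcna K164R and 98.5 to 124 in WT. Wfdc17, a small secreted protein of myeloid cells, had 4.78, 3.12, 0 and 1.62 CPM in double mutant plates, 27.8 to 39.2 in Rev1 knockout, 15.1 and 27.1 in Pcna K164R and 35.6 to 42.8 in WT. Here the single mutants already predicted -1.36, and the double mutant stood at -3.73.

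**Figure D2:**
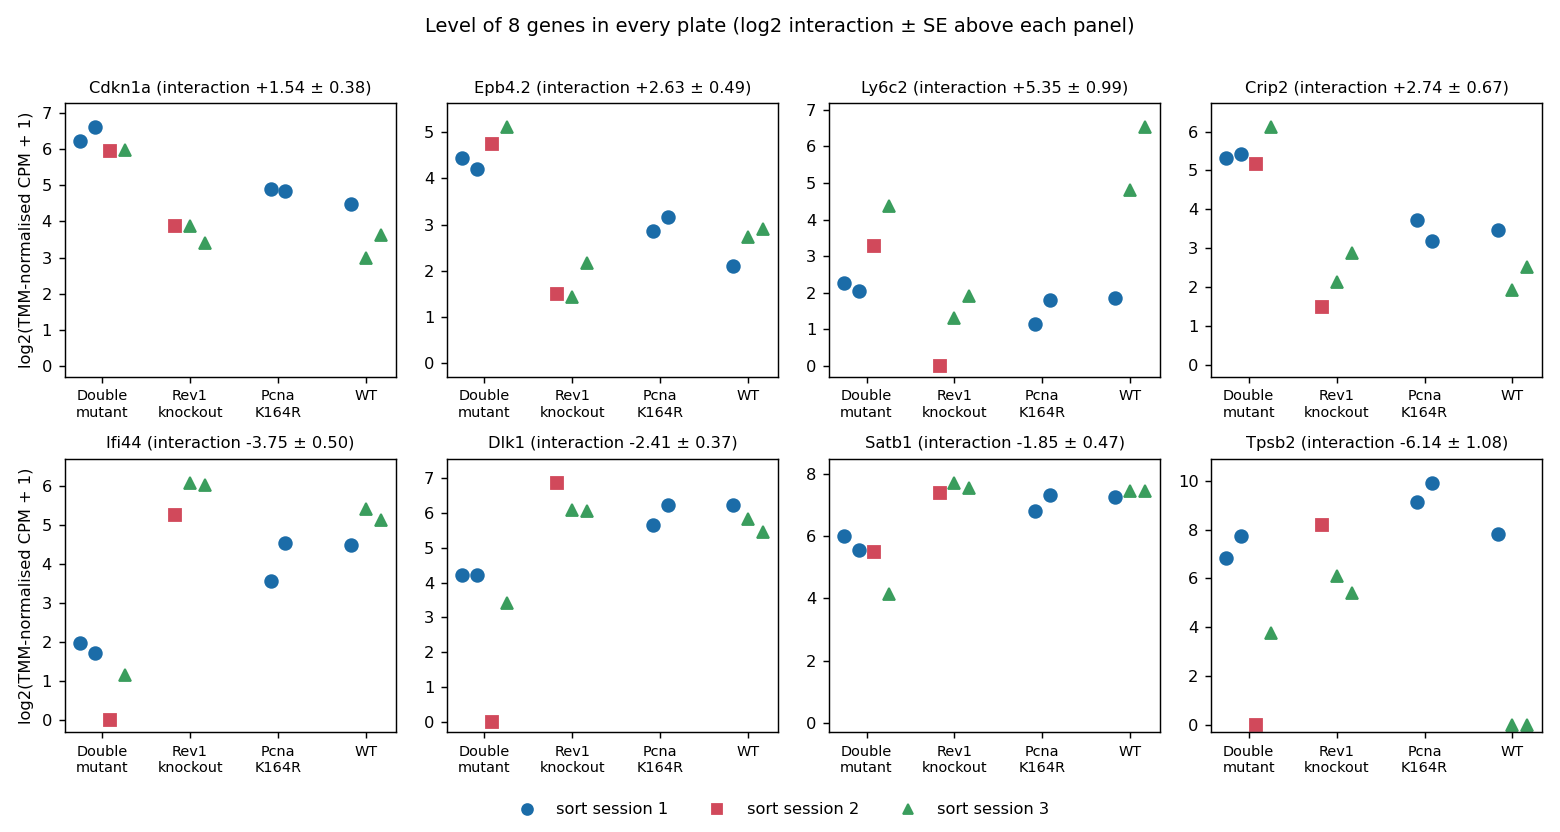
Level of 8 genes in each plate, as log2(TMM-normalised CPM + 1), with the double mutant left and WT right. Each point is 1 plate, and colour and shape give the sort session. Ifi44, Dlk1 and Satb1 were lowest in the double mutant plates, Cdkn1a, Epb4.2 and Crip2 highest there, Ly6c2 was highest in WT 2 and 3, and Tpsb2 was at 0 in WT 2 and 3 and highest in Pcna K164R. A value of 0 in double mutant replicate 3 allows up to 26.0 CPM. The points of Cdkn1a, Epb4.2 and Crip2 in that plate rest on 7, 3 and 4 UMIs.

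Targets of p53 had a median above additivity. The p53 protein answers DNA damage and replication stress by raising genes of cell cycle arrest and apoptosis. Of 34 tested members, 8 were positive and 0 negative at an unadjusted p under 0.05, against 2.02% and 3.21% of all genes, and 29 were above 0. Their median interaction was 0.56, with the double mutant at 0.61 from WT and an additive expectation of 0.04. The list kept its sign under all 34 alternatives, from 0.46 to 0.67. The 8 and 6 plates within sessions gave 0.59 and 0.64, and Y-positive wells 0.47. The count of positive members moved more: it was 4 without double mutant replicate 1, double mutant replicate 2, WT replicate 1 or Rev1 knockout replicate 3, 3 without Pcna K164R replicate 2, 2 from reads, and 11 on leaving out either plate of session 2. Before TMM scaling, summed p53 targets were 756 CPM in double mutant replicate 3, the lowest of all plates, and 1658 to 1786 in the other double mutant plates. They were 1158 to 1216 in Rev1 knockout, 1420 and 1565 in Pcna K164R and 1179 to 1466 in WT. The TMM factor of double mutant replicate 3, 0.549, would raise its sum above the Rev1 knockout and WT plates.

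Cdkn1a, which encodes the cyclin-dependent kinase inhibitor p21 (chromosome 17, 29090979 to 29100722), had 73.9, 96.4, 60.8 and 61.6 CPM in double mutant plates, 13.7, 13.7 and 9.63 in Rev1 knockout, 28.8 and 27.5 in Pcna K164R, and 21.5, 6.87 and 11.3 in WT. After TMM scaling the lowest double mutant plate was above the highest of any other genotype. That plate, replicate 3, held only 7 UMIs of Cdkn1a, so its place above Pcna K164R is uncertain. The single mutants added up to 0.79, mostly from Pcna K164R (0.62), and the double mutant stood at 2.33, an interaction of 1.54 ± 0.38 (adjusted p = 0.346, edgeR), with 1.20 to 1.77 over the 12 fits that leave out 1 plate. The count was spread over cells: 90% of its UMIs came from 116 wells in double mutant replicate 1 and 83 in replicate 2. Pmaip1, the BH3-only protein Noxa, had 8.42, 5.82, 17.4 and 6.49 CPM in double mutant plates, 0.456 to 1.11 in Rev1 knockout, 1.63 and 3.46 in Pcna K164R and 1.98 to 2.90 in WT, with an interaction of 3.06 ± 0.82. Apaf1, the core of the apoptosome, had an interaction of 0.92 ± 0.27 and 40.0 to 60.8 CPM in double mutant plates, 24.8 to 30.4 in Rev1 knockout, 34.5 and 37.5 in Pcna K164R and 31.6 to 50.6 in WT, so that the double mutant overlapped with WT. Bax, the pore-forming apoptosis effector, had 91.2, 96.5, 26.0 and 98.9 CPM in double mutant plates, 36.6 to 45.4 in Rev1 knockout, 39.1 and 48.1 in Pcna K164R and 30.3 to 46.2 in WT. Replicate 3, with 3 UMIs of Bax, stood apart, and the interaction was 0.76 ± 0.33.

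Genes that act on the damage itself had medians near additivity over all wells. Of 28 translesion polymerases and Pcna modifiers, 0 were positive and 0 negative, with a median of 0.05. Of 19 Fanconi anaemia genes, which repair crosslinks, 0 and 0 stood out and the median was 0.02. Of 37 checkpoint and homologous recombination genes 1 was positive and 1 negative, with a median of 0.02. Rad17, which loads the checkpoint clamp, was at 0.67 ± 0.29 and Rad50, of the break-binding MRN complex, at -0.72 ± 0.32. S-phase genes had 2 positive and 0 negative of 45 and a median of 0.13, and G2/M genes 2 positive and 0 negative of 54 and a median of -0.01. Rrm2, the small subunit of ribonucleotide reductase, was an exception within its list at 1.501 ± 0.41, with 260 to 620 CPM in double mutant plates, 123 to 166 in Rev1 knockout, 190 and 225 in Pcna K164R and 185 to 406 in WT. Ccne1, cyclin E1 of S-phase entry, was at 1.14 ± 0.40, with 70.7, 77.1, 17.4 and 107 CPM in double mutant plates, 22.5 to 31.3 in Rev1 knockout, 37.3 and 41.2 in Pcna K164R and 26.9 to 34.9 in WT. At a median standard error of 0.43, an interaction of the size of these medians was not detectable gene by gene. From Y-positive wells, where all genes shifted by 0.14, the medians were 0.28 for translesion polymerases and Pcna modifiers, 0.68 for Fanconi anaemia genes, 0.52 for checkpoint and homologous recombination genes, 0.45 for S-phase genes and 0.92 for G2/M genes, with 14 of 54 G2/M genes positive. Over all genes, 438 were positive at an unadjusted p under 0.05 from these wells, against 238 from all wells.

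**Figure D3:**
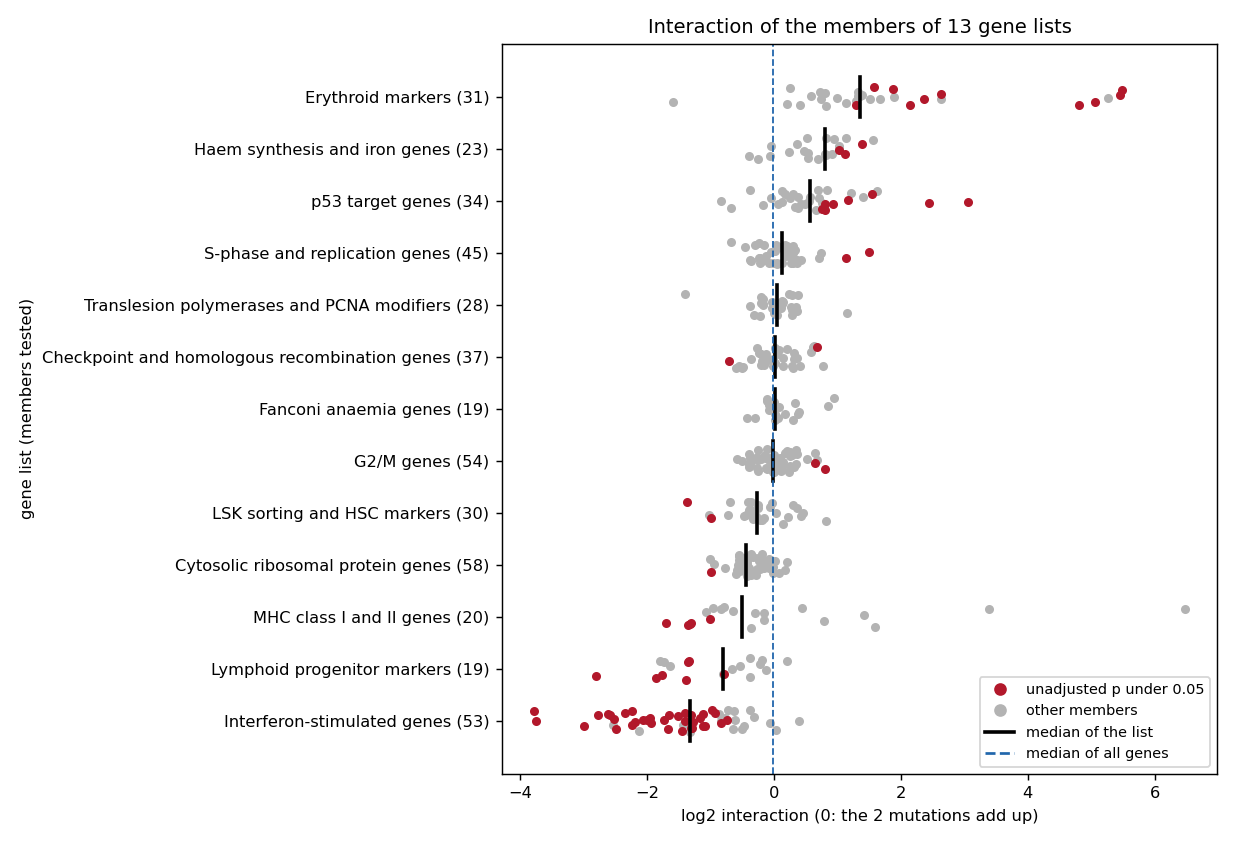
Log2 interaction (x axis) of each tested member of 13 gene lists, with the number tested in brackets. Red points have an unadjusted p under 0.05, black bars are list medians and the dashed line is the median of all genes, -0.01. Interferon-stimulated genes (-1.32) and lymphoid markers (-0.80) lie left of it, p53 targets (0.56), haem genes (0.81) and erythroid markers (1.35) right, and repair lists close to it.

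Erythroid genes lay above additivity. Of 31 tested erythroid markers, 10 were positive and 0 negative, 30 were above 0 and the median interaction was 1.35, with a double mutant at 1.95 from WT and an expectation of 0.45. Of 23 genes of haem synthesis and iron uptake, 3 were positive and 0 negative, with a median of 0.81. Epb4.2, the band 4.2 protein of the red cell membrane skeleton, had 20.6, 17.4, 26.0 and 33.7 CPM in double mutant plates, 1.82, 1.68 and 3.52 in Rev1 knockout, 6.29 and 7.89 in Pcna K164R, and 3.29, 5.62 and 6.53 in WT. The double mutant lay above all other plates, but the 26.0 CPM of replicate 3 were 3 UMIs, so its place is uncertain. The interaction of Epb4.2 was 2.63 ± 0.49. Slc4a1, the band 3 anion exchanger of the same membrane, had 8.68, 17.7, 17.4 and 28.0 CPM in double mutant plates, 0.152, 0 and 2.96 in Rev1 knockout, 1.52 and 2.69 in Pcna K164R, and 2.24, 9.68 and 14.5 in WT. The double mutant overlapped with WT, and the interaction was 5.45 ± 1.13, with Rev1 knockout at -2.92 from WT. Rev1 knockout replicates 1 and 2 held 1 and 0 UMIs of it, so the size depends on the prior count, and it was 8.73 without Rev1 knockout replicate 3. Fech, the last enzyme of haem synthesis, had 216, 204, 43.4 and 258 CPM in double mutant plates, 22.9 to 79.6 in Rev1 knockout, 122 and 94.5 in Pcna K164R and 60.9 to 111 in WT. Double mutant replicate 3 lay below WT and the other double mutant plates above all other genotypes, with an interaction of 1.38 ± 0.47.

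The makeup of the wells moved with these genes. Of the 20% of kept wells richest in erythroid transcripts, 28.9%, 36.9%, 18.3% and 59.8% of the wells of the double mutant plates were members, against 4.59%, 4.69% and 13.2% of those of Rev1 knockout, 20.9% and 16.8% of Pcna K164R and 20.2%, 19.02% and 14.0% of WT. Before TMM scaling, summed erythroid markers ran from 944 to 6462 CPM in double mutant plates and 730 to 1825 in Rev1 knockout. They ran from 2491 to 2851 in Pcna K164R and 1919 to 2698 in WT. The lowest double mutant plate, replicate 3, was within the Rev1 knockout range on this scale. TMM scaling, with a factor of 0.549 for that plate, would raise it above that range. The size of the erythroid interaction also hung on single plates: the median was 0.34 without WT replicate 1, 0.65 without the plate labelled double mutant 4, 0.39 from the 8 plates and 2.37 from the 6 plates within sessions, and 2.31 without Rev1 knockout replicate 3. Without the 20% of wells richest in erythroid transcripts, 26 erythroid markers could be tested, and Slc4a1 was not among them. Their median was 1.53, with 4 positive and 0 negative at an unadjusted p under 0.05. From all wells, 10 of 31 were positive and 0 negative. The median without these wells thus rests on fewer members, and the wells were picked by erythroid transcripts. It cannot show that the erythroid interaction was undiminished without them. The median of the haem genes was 0.16 there. The haem median was 0.29 without WT replicate 1, 0.43 without the plate labelled double mutant 4, 0.48 without Rev1 knockout replicate 2, and 0.36 and 1.42 from the 8 and 6 plates. From Y-positive wells the medians were 1.17 for erythroid markers, with 5 of 29 positive, and 0.78 for haem genes, and Epb4.2 was at 0.88. Over all genes, 438 were positive from these wells, against 238 from all wells.

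Other genes above additivity had no list in common. Crip2, a LIM-domain protein, had 39.2, 41.9, 34.7 and 68.1 CPM in double mutant plates, 1.82, 3.36 and 6.30 in Rev1 knockout, 12.2 and 8.08 in Pcna K164R, and 10.01, 2.81 and 4.72 in WT. The double mutant lay above all others, although replicate 3 held only 4 UMIs of it. It stood at 2.996 from WT where 0.26 was predicted. The interaction of 2.74 ± 0.67 was 1.55 from the 8 plates within sessions and 1.63 without WT replicate 1. Rgcc, a regulator of cyclin-dependent kinase 1 known as a p53 response gene, had 52.1 to 175 CPM in double mutant plates, 11.5 to 27.4 in Rev1 knockout, 27.0 and 47.5 in Pcna K164R and 30.3 to 42.5 in WT, and an interaction of 2.12 ± 0.44. Ell2, an elongation factor of RNA polymerase II, had 47.0 to 70.6 CPM in double mutant plates, 17.5 to 22.4 in Rev1 knockout, 26.2 and 26.3 in Pcna K164R and 22.1 to 31.1 in WT, and 1.47 ± 0.35. In both genes the double mutant plates were the 4 highest after TMM scaling. Replicate 3 held 6 UMIs of Rgcc and 7 of Ell2 and was raised by a TMM factor of 0.549, so its place is uncertain. Without the most erythroid wells Ell2 was at 0.58 and Rgcc at 1.99, and in Y-positive wells Ell2 was at 0.27 and Rgcc at 1.64. Daam1, a formin of actin assembly, was at 1.95 ± 0.48. Pnp2, a purine nucleoside phosphorylase whose counts may be split with its near copy Pnp, was at 1.81 ± 0.45, and C2cd4a at 3.94 ± 1.03, or 6.07 without Rev1 knockout replicate 3.

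In 3 of the 12 positive genes the fitted double mutant was no higher than WT. Ly6c2, the Ly6C antigen of monocytes, which has a near copy in Ly6c1, had 3.81, 3.12, 8.68 and 19.9 CPM in double mutant plates, 0, 1.47 and 2.78 in Rev1 knockout, 1.19 and 2.50 in Pcna K164R, and 2.63, 26.9 and 91.1 in WT. The single mutants added up to -5.96 and the double mutant stood at -0.62, an interaction of 5.35 ± 0.99. WT replicates 2 and 3 carried the WT level, and 90% of its UMIs came from 6 and 5 wells there. In the plate labelled double mutant 4 they came from 1 well. Summed granulocyte-monocyte markers ran from 1609 to 7271 CPM in WT, against 1075 to 1996 in double mutant plates, 1497 to 2397 in Rev1 knockout and 1706 to 1875 in Pcna K164R. Their part in the result was not tested. Gpc1, the proteoglycan glypican-1, followed the same order at 3.24 ± 0.81, with 0 to 14.2 CPM in double mutant plates, 1.67 to 2.41 in Rev1 knockout, 0.962 and 1.95 in Pcna K164R, and 2.77, 10.6 and 25.4 in WT. Ttc39b was at 1.55 ± 0.37, with an expectation of -1.82.

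Mast cell proteases showed the reverse of that pattern: in the fit with sort session both single mutants stood above WT and the double mutant closer to it. These proteases are stored in the granules of mast cells, which arise from Kit-positive progenitors. Of 13 tested mast cell and basophil markers, 7 were negative and 0 positive, with a median interaction of -2.64, an additive expectation of 1.71 and a double mutant at 0.65 from WT. Tpsb2, a tryptase, had 114, 214, 0 and 12.6 CPM in double mutant plates, 291, 67.3 and 40.9 in Rev1 knockout, 563 and 963 in Pcna K164R, and 225, 0 and 0 in WT. Within session 1 both Pcna K164R plates were highest and both double mutant plates were below WT. Within session 3 the plate labelled double mutant 4 lay between the Rev1 knockout plates and WT at 0. Cma1, the chymase, had 66.7, 180, 0 and 18.2 CPM in double mutant plates, 153, 84.7 and 48.9 in Rev1 knockout, 255 and 602 in Pcna K164R, and 86.9, 0 and 1.45 in WT. Cpa3, carboxypeptidase A3, had 130, 184, 0 and 23.9 CPM in double mutant plates, 181, 74.9 and 32.4 in Rev1 knockout, 290 and 555 in Pcna K164R, and 156, 7.19 and 5.81 in WT. The fitted interactions were -6.14 ± 1.08 for Tpsb2, -5.87 ± 0.99 for Cma1, -3.90 ± 0.71 for Cpa3 and -8.58 ± 1.38 for Tpsab1, another tryptase whose counts may be split with Tpsb2. With WT plates at 0 the values for the tryptases and Cma1 depend on the prior count and are no bounds. Without the plate labelled double mutant 4, Tpsb2 was at -13.63 (adjusted p = 0.00766, edgeR) and Cma1 at -8.48 (adjusted p = 0.0232), the only calls of that fit, and without WT replicate 1 Tpsb2 was at -13.57 (adjusted p = 0.0518). The same holds for Trnp1 (-7.89 ± 1.45), which had few counts in most plates.

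In most plates few cells held most of these transcripts, although many wells carried some. Tpsb2 UMIs were found in 63.0% and 60.7% of Pcna K164R wells, and in WT replicate 1 90% of them came from 65 wells. In double mutant replicates 1 and 2, 90% of Tpsb2 UMIs came from 1 and 2 wells, in Rev1 knockout replicates 1 and 2 from 2 and 1, and in Pcna K164R replicates 1 and 2 from 5 and 9. Of the 5% of kept wells richest in the 4 proteases, 10, 17, 0 and 3 lay in double mutant plates, 8, 4 and 5 in Rev1 knockout, 29 and 44 in Pcna K164R and 30, 3 and 2 in WT. Without these wells, 10 members could be tested and their median was -0.27. Cpa3 was then at -0.998, Cma1 at -2.39 and Tpsb2 at -4.51. From Y-positive, Xist-negative wells, of which Rev1 knockout plates held 13, 20 and 30, the median was -0.62 over 11 members. There Cpa3 was at 0.30, but Cma1 at -1.62, Tpsab1 at -2.59 and Tpsb2 at -4.83. The protease-rich wells were picked by members of the mast cell list, so the smaller median of that list without them followed in part from the choice. Without those wells the medians were -1.35 for interferon-stimulated genes, 0.54 for p53 targets and 1.36 for erythroid markers.

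**Figure D4:**
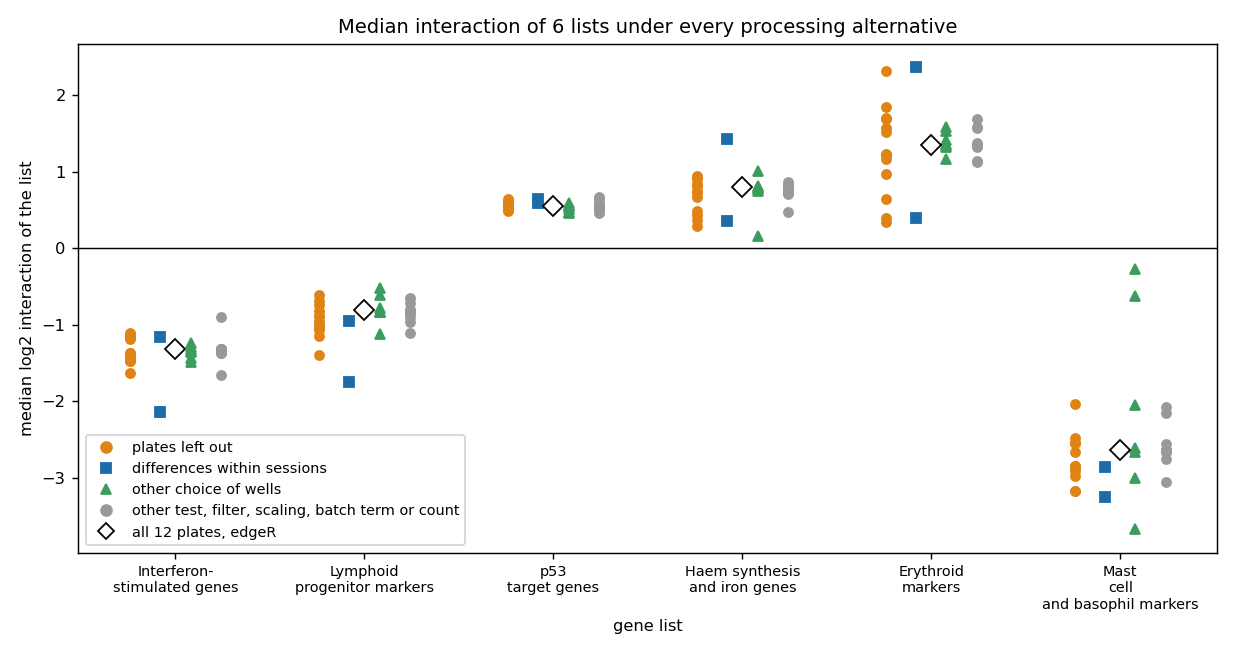
Median log2 interaction (y axis) of 6 lists under every processing alternative, 1 point each, with the fit of all 12 plates as the open diamond. Orange points leave out plates, blue squares use differences within sessions, green triangles take other wells, and grey points use another test, filter, scaling, batch term or count. The p53 list spans 0.46 to 0.67, the erythroid list 0.34 to 2.37, and the mast cell list reaches -0.27.

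Whether effects add up depends on the scale. On linear CPM, 70 of the 72 named genes kept the direction they had on the log2 scale, Pcna and Camp being the exceptions. Cytosolic ribosomal protein genes, at a median of -0.44 with 54 of 58 members below 0, depended on double mutant replicate 3: 1 member was negative at an unadjusted p under 0.05, and the median was -0.01 without that plate. Their summed level was 29187 CPM in that plate and 134157 to 148712 in the other double mutant plates, against 144550 to 148500 in Rev1 knockout, 127950 to 148400 in Pcna K164R and 127480 to 147190 in WT.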

How the data were processed

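The authors deposited 3 tables per plate, of reads, observed UMIs and transcript estimates, per the file headers and values. Observed UMI counts were used, and the authors' read counts and their expected counts of transcripts, rounded to whole numbers, served as alternatives. The submitters' processing notes name BWA 0.7.15; the counting tool is not given in the sources used here. The design text speaks of 96-well plates, while each table holds 384 wells. UMIs of wells with at least 1000 were summed per plate. edgeR 4.0.16 (R 4.3.3) used TMM scaling, its default filter, and a quasi-likelihood test of the interaction with genotype and sort session as terms (6 residual degrees of freedom). P-values were adjusted over all 12221 genes, and 422 X and Y genes were then left out. DESeq2 1.42.0 and limma 3.58.1 were alternatives, with other filters, wells, batch terms and left-out plates. The 72 named genes are the 12 of smallest p in each direction, Rev1, Pcna and Cdkn1a, and up to 3 of smallest p per list. The members and the 37 lists were chosen with earlier results of these data known. The values of some named genes are not reported here. Replicate plates differed beyond counting noise (chi-square per degree of freedom at least 8.11). Per-plate values are TMM-scaled CPM, list sums plain CPM. Promoters are RefSeq's, on GRCm38.p6.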

Additional observations from a re-analysis of the deposited data

Results flagged for a closer look

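In 11 of 72 named genes, 1 of the 4 double mutant plates stood apart from the other 3 by Dixon's test at 95%, where chance gives about 1 in 20. In 7 of them it was double mutant replicate 3, in which 1 UMI equals 8.68 CPM. Ttc39b had 34.7 CPM there, against 12.5 to 15.005 in the other double mutant plates, Cd4 8.68 against 2.03 to 2.29, Tcf4 139 against 82.3 to 91.7 and Thbs1 8.68 against 0 to 0.406. Bax was low there at 26.0 CPM against 91.2 to 98.9, and H2-D1 at 78.1 against 179.65 to 198.1. In the other 4 genes it was the plate labelled double mutant replicate 4. Gpc1 had 14.2 CPM there against 0 to 1.95, Rrm2 620.06 against 260.39 to 319.92, Hbb-bh1 7.30 against 0 to 0.797 and Camp 0.406 against 0.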

How the results depend on the processing

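No paired analysis was possible because the replicate numbers follow accession order and pair no plates. The count of genes past the threshold, 0 with edgeR, was 230 without a filter on low counts, 29 with DESeq2, 2 with limma-voom, 4 with flow cell in place of session, 6 from wells of at least 3000 UMIs, 1 from wells thinned to 1000 UMIs, 1 without the most erythroid wells, 6 without session 2, 1 without double mutant replicates 3 and 4, 1 from the 8 plates and 2 from the 6 plates within sessions, and 0 to 6 leaving out 1 plate, with 6 without Rev1 knockout replicate 1 or double mutant replicate 3. Positive genes at an unadjusted p under 0.05 (238) numbered 588 without the filter, 441 with limma-voom, 151 with flow cell, 158 from reads, 438 from Y-positive wells, 376 without session 2, 519 from the 6 plates and 148 to 385 leaving out 1 plate. Negative genes (379) numbered 227 with flow cell, 212 thinned, 630 without session 2, 878 from the 6 plates and 223 to 638 leaving out 1 plate. The fits without either or both plates of session 2 are nearly the same fit, since a plate alone in its session does not bear on the interaction. The cause of the shifts between settings was not tested.

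Of 2486 values of named genes under alternatives, 2371 kept direction and side of the threshold, 90 came to pass it and 25 changed sign. Those were Cpa3 at 0.30 and Rad50 at 0.034 (Y-positive wells), Rev1 at -0.26 (flow cell), Bax at -0.13 (reads), Pvt1 at -0.10 (thinned), Camp at 126 CPM and Pcna at 16.2 CPM on the linear scale, and Pcna, near 0 throughout, at 0.028 (DESeq2 size factors), 0.017 (DESeq2), 0.21 (limma-voom), 0.0034 (no batch term), 0.14 (flow cell), 0.54 (reads), 0.0042 (transcripts), 0.17 (thinned), 0.43 (without session 2), 0.37 (without double mutant 3 and 4, and 8 plates), 0.56 (6 plates) and -0.33 to 0.44 leaving out 1 plate. Read counts shifted the median of all genes by -0.17 and Y-positive wells by 0.14. The 8 and 6 plates within sessions, the joint omission of double mutant 3 and 4 and the omission of protease-rich wells were chosen after seeing the data. Double mutant replicate 3 limits low genes, and Pcna K164R has 2 plates.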

Other observations

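The sorting markers themselves lay below additivity in part. Ly6a, which encodes Sca-1, had 30.2, 24.9, 0 and 19.1 CPM in double mutant plates, 64.7, 101 and 88.9 in Rev1 knockout, 41.5 and 43.5 in Pcna K164R and 56.0, 75.3 and 67.2 in WT, with an interaction of -1.36 ± 0.36. All double mutant plates were below all others. Kit, the stem cell factor receptor, had an interaction of -0.35 ± 0.37. Cd34, a surface sialomucin outside the LSK definition, had -0.997 ± 0.32, or -0.66 without WT replicate 1. Of 30 sorting and stem cell markers, 0 were positive and 2 negative, with a median of -0.27. Macrophage markers had a median of -1.04 with 2 of 14 negative, and Csf1r, their growth factor receptor, stood at -1.82 ± 0.54. The median ran from -2.26 without double mutant 3 and 4 to -0.04 from the 6 plates within sessions. Summed macrophage markers were 187 to 325 CPM in double mutant plates and 106 to 508 in Rev1 knockout. They were 451 to 467 in Pcna K164R and 141 to 651 in WT.

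The median interaction of granulocyte-monocyte progenitor markers was 0.49, with 3 positive and 1 negative of 21. Neutrophil markers were few and sparse, with 1 of 8 negative and a median of -3.12 that turned to 1.46 without Rev1 knockout replicate 3, and for Camp, a granule peptide, 1 well held 87.9% of the UMIs of WT replicate 3. Housekeeping lists stayed close to the median of all genes: nuclear respiratory chain genes were at -0.11, mitochondrially encoded genes at 0.15, glycolysis genes at -0.03, ribosome biogenesis genes at 0.06 and histone genes at -0.10. Chaperone genes had a median of 0.34 with 2 of 25 positive, and cholesterol synthesis genes -0.34 with 1 of 21 negative.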
